A study of Mus musculus with 6 samples.

Results

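The cytosolic heat shock chaperones are represented here by 10 genes of the mouse count table, taken by symbol out of 46983 genes. They are the heat shock factor gene Hsf1, the HSP70 genes Hspa1a, Hspa1b and Hspa8, the HSP70 partner genes Dnajb1, Hsph1 and Bag3, the HSP90 genes Hsp90aa1 and Hsp90ab1, and the small heat shock protein gene Hspb1. All 10 had a row in the table, and all 10 passed the filter on low counts. The libraries came from wild-type mouse islets, the endocrine clusters of the pancreas that hold the insulin-secreting beta cells. Islets were kept in CMRL medium for 24 h at high, stimulating glucose (3 libraries) or at low, non-stimulating glucose (3 libraries). The glucose concentrations, the strain, the age of the mice and the number of animals per library are not given in the sources used here.

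Chaperones of the HSP70 and HSP90 families bind unfolded or unfinished proteins in the cytosol and release them in cycles driven by ATP. J-domain proteins bring clients to HSP70 and start its ATP hydrolysis, and exchange factors make it release them. The transcription factor HSF1 is held inactive by chaperones in unstressed cells, and when unfolded proteins occupy those chaperones it raises transcription of the inducible family members. Beta cells make large amounts of secretory protein, most of it folded in the endoplasmic reticulum by a separate set of chaperones.

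Of the 10 genes, Hspb1 and Bag3 rose at high glucose, and the other 8 did not pass the test. Hspb1, a small heat shock protein that binds unfolding proteins without using ATP, averaged 38.0 ± 18.1 CPM at high and 8.11 ± 5.01 CPM at low glucose (SD, n = 3 each). Bag3, which couples HSP70 to selective autophagy, averaged 66.3 ± 11.8 CPM at high and 35.0 ± 2.25 CPM at low glucose (SD, n = 3 each). CPM are counts per 1e+06 of library size, here scaled by the trimmed mean of M-values (TMM). The inducible HSP70 genes Hspa1a and Hspa1b had large log2 fold changes with large errors, and low glucose replicate 1 carried many more of their transcripts than the other low glucose libraries.

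The libraries differed in makeup between the groups, and this touches every value below. Totals were 14150726 to 15846235 counts at high and 10596020 to 12730985 counts at low glucose. The 24 acinar markers, genes of the enzyme-secreting exocrine pancreas, took 12.5% to 24.8% of the counts at high and 48.6% to 64.2% at low glucose, and 22 of the 24 fell. The 10 beta-cell markers took 2.44% to 7.12% at high and 1.52% to 3.25% at low glucose, with 5 of them lower, so the labelled cell type was present beside much exocrine RNA. The 8 duct markers took 0.405% to 0.595% at high and 0.0472% to 0.0586% at low glucose, and 3 of them rose. The 8 enterocyte markers took 0.00292% to 0.0258% at high and 0.0819% to 0.478% at low glucose, and all 8 fell. No gene of these lists was at 0 in all 6 libraries. The part of these shares in the chaperone results was not tested, and in bulk RNA fewer cells of a type and less RNA per cell cannot be told apart. The median gene had a log2 fold change of 0.015 with TMM and of 1.16 with library totals, so directions are relative to TMM scaling. That median was 0.277 when hormone and granule genes set the library sizes.

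In edgeR's quasi-likelihood test at a Benjamini-Hochberg adjusted p under 0.05, 2 of the 10 genes were higher at high glucose, against 13.3% of the 13996 genes tested, and 0 were lower, against 14.2%. A share of 2 in 10 is close to that background. None of the 10 was lower at an unadjusted p under 0.05, by DESeq2 or by limma-voom. An unadjusted p under 0.05 with a positive fold change was found for 8 of the 10, against 20.9% of all genes tested. That count was 2 without high glucose replicate 3, 3 without low glucose replicate 2 and 4 without high glucose replicate 2, and 6 to 8 with any other library left out. The share of all genes at an unadjusted p was taken for the full data only. A drop particular to the 10 genes therefore cannot be told from a general loss of calls in these fits. The log2 fold change was above 0 for 9 of the 10, against 50.8% of all genes, and its median over the 10 was 0.83. Every high glucose library lay above every low glucose library for 6 of the 10 genes, against 23.5% of all genes tested, where 45.9% did not overlap in either direction. With the replicate number as a block, 4 of the 10 were higher, since Hspa8 and Hsp90ab1 passed as well. DESeq2 called 6 of the 10 higher, against 15.6% of all genes, and library totals 9, against 59.7% of all genes. The block called 15.7% of all genes higher. With 1 library left out, from 1 (without high glucose replicate 3 or low glucose replicate 2) to 6 (without high glucose replicate 1) were called. Without low glucose replicate 1, 4 were called. The share of all genes called higher moved as well. It was 5.78% without high glucose replicate 3, 7.66% without high glucose replicate 2 and 4.86% without low glucose replicate 2. Without high glucose replicate 1 it was 19.8%, and without low glucose replicate 1 it was 7.71%.

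**Figure D1:**
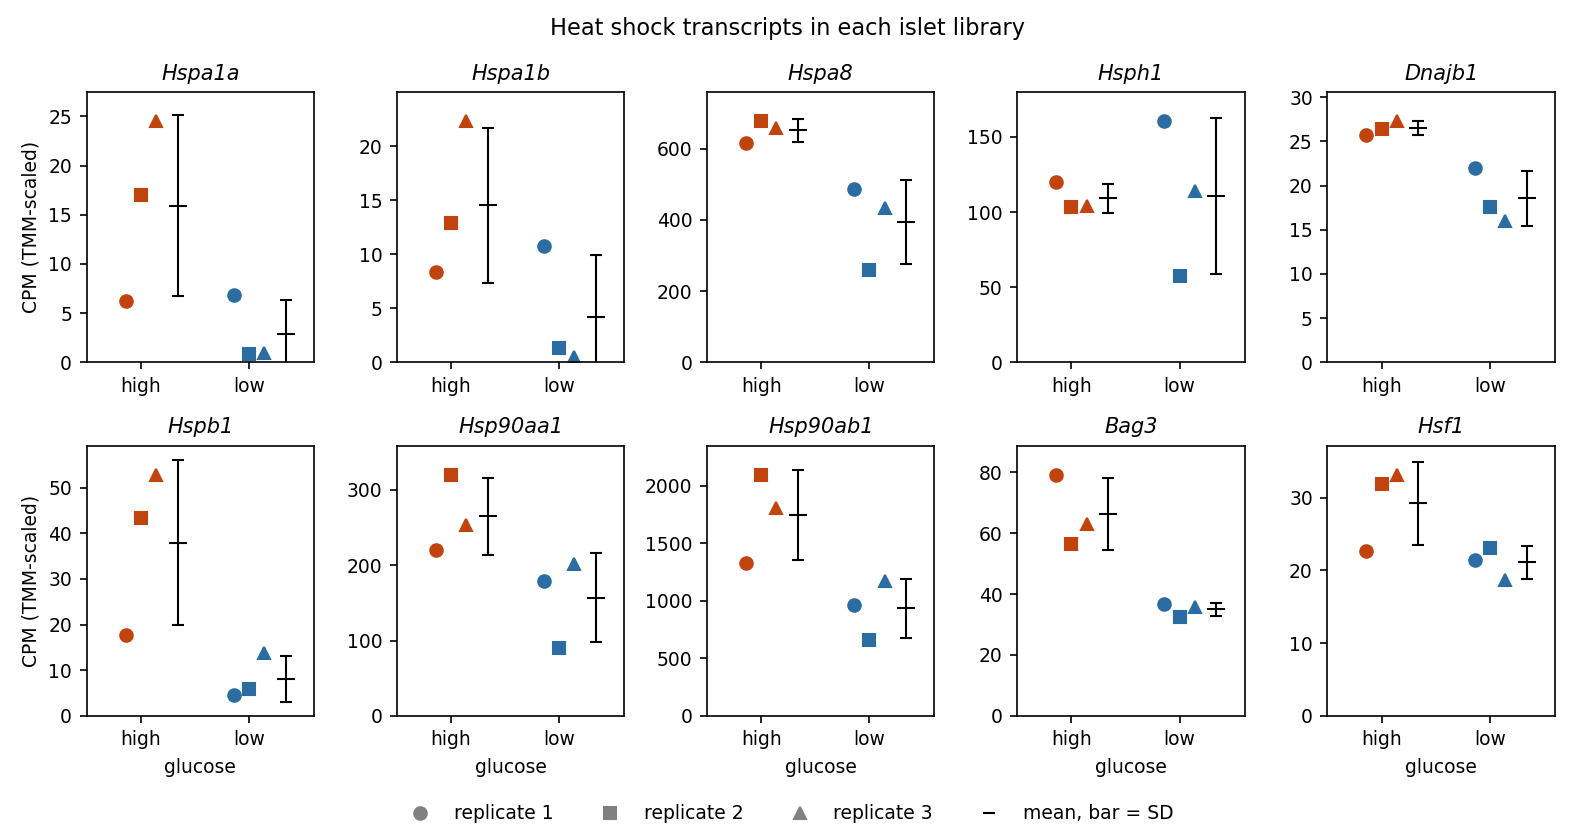
Level of each of the 10 heat shock genes in TMM-scaled CPM (y axis, linear, from 0) in the 3 high glucose (left) and 3 low glucose (right) libraries. Symbols give the replicate number, and black bars show the mean ± SD of 3 libraries, cut at 0. Bag3 separates the groups with little spread at low glucose, whereas low glucose replicate 1 reaches the high glucose range for Hspa1a and Hspa1b.

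Hsf1, the master activator of the heat shock response, lies on chromosome 15 (76477422 to 76501913, plus strand, GRCm38). It had 22.7, 31.9 and 33.2 CPM in high glucose replicates 1 to 3 and 21.5, 23.1 and 18.7 CPM in low glucose replicates 1 to 3. The groups overlapped, since high glucose replicate 1 lay below low glucose replicate 2. Its log2 fold change, given here as high minus low with its SE, was 0.47 ± 0.19 and did not pass (edgeR adjusted p = 0.108). It passed without high glucose replicate 1 (log2 fold change 0.62, edgeR adjusted p = 0.0141), the library with the smallest acinar share.

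Hspa1a and Hspa1b are neighbouring, intron-poor genes for the stress-inducible HSP70 and lie on chromosome 17 (Hspa1a at 34969190 to 34972156, Hspa1b at 34956436 to 34959238, minus strand). Their coding sequences in GENCODE M21 were 99.5% identical at the nucleotide level, while the parts after the coding sequence were 51.6% identical. Reads from the coding part cannot be assigned to either gene with certainty, so counts of both are uncertain. Their upstream sequences are also nearly the same and are shown with those of Hspb1 and Bag3. The sequences to show were chosen by their heat shock element content, with Bag3 as an example without a match. The pairs seen in them are therefore no finding about genes with large fold changes. Each line gives the 150 bases before the RefSeq transcription start (GRCm38.p6), 5′ to 3′ on the gene's strand, with 8-base heat shock element pairs in capitals.
Hspa1a: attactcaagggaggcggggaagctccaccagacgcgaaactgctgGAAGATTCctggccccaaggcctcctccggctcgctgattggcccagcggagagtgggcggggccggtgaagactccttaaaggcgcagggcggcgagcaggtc
Hspa1b: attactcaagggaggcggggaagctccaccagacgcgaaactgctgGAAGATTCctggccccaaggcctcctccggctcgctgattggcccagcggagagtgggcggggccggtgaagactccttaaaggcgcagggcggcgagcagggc
Hspb1: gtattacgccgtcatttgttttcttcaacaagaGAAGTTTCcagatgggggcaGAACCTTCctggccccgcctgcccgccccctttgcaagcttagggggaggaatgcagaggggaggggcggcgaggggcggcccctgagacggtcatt
Bag3: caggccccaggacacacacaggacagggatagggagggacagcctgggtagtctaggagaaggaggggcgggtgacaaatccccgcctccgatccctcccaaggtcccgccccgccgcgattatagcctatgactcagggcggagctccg

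HSF1 binds as a trimer to inverted repeats of the unit GAA. The search covered the 2 pairings of that unit, GAANNTTC and TTCNNGAA, each of which reads the same on both strands, in the 250 bases before each start. The windows shown span chr17:34972157-34972306 (Hspa1a, minus strand), chr17:34959239-34959388 (Hspa1b, minus strand), chr5:135887769-135887918 (Hspb1, plus strand) and chr7:128523433-128523582 (Bag3, plus strand). RefSeq gave 8 windows for 6 of the 10 genes, and 5 of the 8 windows held at least 1 pair, against 12.8% of all 32851 windows. Windows of 1 gene, and those of Hspa1a and Hspa1b, share sequence and are not independent. Hspa1a and Hspa1b held the same pair, starting at -104 where -1 is the base before the start, within windows of 250 bases that were 98.8% identical. Hspb1 held 2 pairs, at -117 and -97, and 1.46% of all windows held 2 or more. Both windows of Hsph1 held 1 TTCNNGAA pair, and neither the window of Bag3 nor the pair of Dnajb1 windows held these letters. Such matches describe the letters only, and no binding was measured.

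Hspa1a had 6.23, 17.0 and 24.5 CPM in high glucose replicates 1 to 3 and 6.86, 0.831 and 0.943 CPM in low glucose replicates 1 to 3. The last 3 values rest on 82, 5 and 6 reads. Low glucose replicate 1 lay above high glucose replicate 1, so the groups overlapped. Its log2 fold change of 2.33 ± 0.81 did not pass (edgeR adjusted p = 0.0676). Without low glucose replicate 1 it was 4.14 and passed (edgeR adjusted p = 0.0177), and without high glucose replicate 1 it was 2.66 and passed (edgeR adjusted p = 0.0193). DESeq2 on all libraries gave 2.42 and an adjusted p of 0.00874. When hormone and granule genes set the library sizes it was 2.90 and passed (edgeR adjusted p = 0.0157).

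Hspa1b had 8.31, 12.9 and 22.3 CPM in high glucose replicates 1 to 3 and 10.8, 1.33 and 0.472 CPM in low glucose replicates 1 to 3, where the low glucose values rest on 129, 8 and 3 reads. Low glucose replicate 1 was again above high glucose replicate 1, and the highest low glucose library had 22.9 times the level of the lowest. The resulting log2 fold change of 1.67 ± 0.88 did not pass (edgeR adjusted p = 0.192). Without low glucose replicate 1 it was 4.0 (edgeR adjusted p = 0.0134). Between libraries of the same number, the log2 ratio of high to low was -0.38, 3.28 and 5.56 for Hspa1b and -0.14, 4.36 and 4.70 for Hspa1a. High glucose replicate 1 and low glucose replicate 1 had the smallest acinar shares of their groups, 12.5% and 48.6%, and stood at opposite ends of their groups for both genes.

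Hspa8, which encodes the constitutive HSP70 of the cytosol, lies on chromosome 9 (40800984 to 40810087, plus strand). It had 616, 678 and 659 CPM in high glucose replicates 1 to 3 and 486, 260.3 and 434 CPM in low glucose replicates 1 to 3. All high glucose libraries lay above all low glucose libraries, and low glucose replicate 2 was the lowest. Its log2 fold change of 0.73 ± 0.27, a fold of 1.65, did not pass (edgeR adjusted p = 0.0868). With the replicate block it was 0.77 and passed (edgeR adjusted p = 0.0489), and DESeq2 gave an adjusted p of 0.0227.

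Per 1000 reads of Hspa8, the inducible pair Hspa1a and Hspa1b together had 23.6, 44.1 and 71.1 reads in high glucose replicates 1 to 3 and 36.3, 8.30 and 3.26 reads in low glucose replicates 1 to 3. This ratio is taken within a library and does not depend on scaling. High glucose replicate 1 lay below low glucose replicate 1, and the other high glucose libraries lay above all low glucose ones. The log2 ratio averaged -4.57 ± 0.80 at high and -6.65 ± 1.75 at low glucose (SD, n = 3 each). The difference of 2.08 was not beyond the spread between libraries (exact two-sided permutation p = 0.2, where 0.1 is the smallest p that 3 against 3 libraries allow). It was 3.01 without low glucose replicate 1 and 1.27 without low glucose replicate 3.

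**Figure D2:**
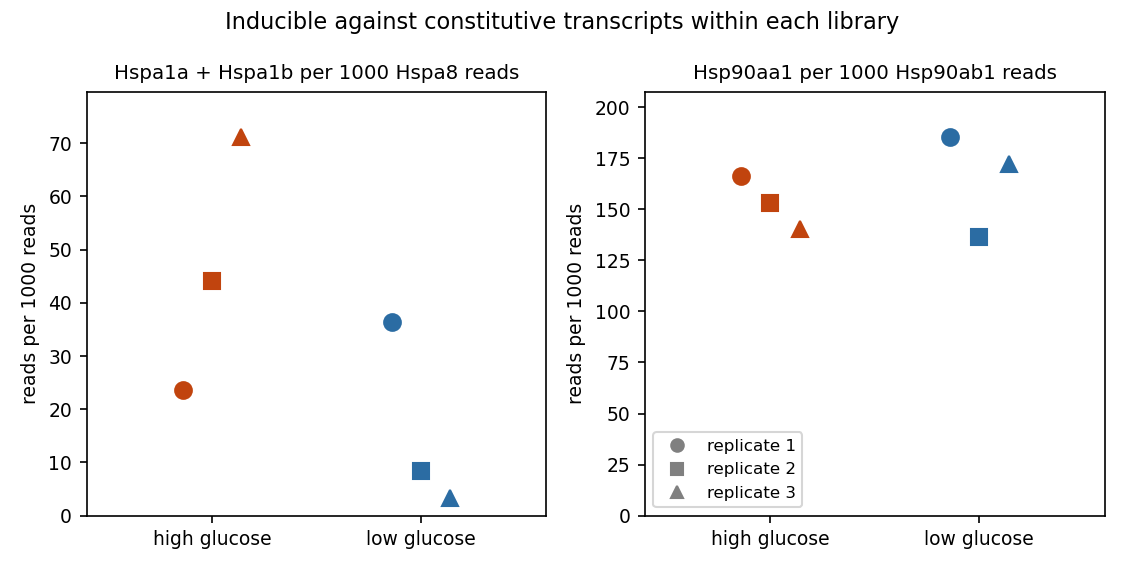
Reads of Hspa1a plus Hspa1b per 1000 reads of Hspa8 (left panel) and of Hsp90aa1 per 1000 reads of Hsp90ab1 (right panel), on linear y axes from 0, for each high and low glucose library with its replicate number. The HSP70 ratio spans 3.26 to 71.1 and overlaps between groups through the libraries of replicate 1, and the HSP90 ratio stays between 136 and 185.

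Among the partners of HSP70, Dnajb1 encodes an HSP40 co-chaperone that stimulates the ATPase of HSP70 and lies on chromosome 8 (83608193 to 83612653, plus strand). It had 25.8, 26.4 and 27.3 CPM in high glucose replicates 1 to 3 and 22.0, 17.6 and 16.04 CPM in low glucose replicates 1 to 3. The groups did not overlap, and the high glucose libraries lay within 1.06 times of each other. The resulting log2 fold change of 0.51 ± 0.17 did not pass (edgeR adjusted p = 0.0580). It passed with DESeq2 (adjusted p = 0.0494), without high glucose replicate 1 (edgeR adjusted p = 0.0472) and without low glucose replicate 1 (edgeR adjusted p = 0.0343).

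Bag3 lies on chromosome 7 (128523616 to 128546981, plus strand) and encodes a nucleotide exchange factor of HSP70. It had 79.3, 56.5 and 63.0 CPM in high glucose replicates 1 to 3 and 36.7, 32.4 and 35.9 CPM in low glucose replicates 1 to 3. The groups were well apart, and the same-numbered log2 ratios of 1.11, 0.80 and 0.81 were the most even of the 10 genes. Bag3 rose by 0.92 ± 0.17 on the log2 scale, a fold of 1.89 (edgeR adjusted p = 0.00742). It passed with each library left out in turn, with log2 fold changes of 0.77 to 1.03. With hormone and granule genes setting the library sizes it was 1.15 and did not pass (edgeR adjusted p = 0.0509).

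Hsph1, an HSP110 family exchange factor that also holds unfolded proteins, lies on chromosome 5 (149614287 to 149636376, minus strand). It had 120.2, 104 and 104 CPM in high glucose replicates 1 to 3 and 161, 57.4 and 114 CPM in low glucose replicates 1 to 3. Low glucose replicate 1 was the highest of all 6 libraries and low glucose replicate 2 the lowest. The log2 fold change was -0.02 ± 0.34 (edgeR adjusted p = 0.970), the smallest in size of the 10 genes. Its sign was positive under 9 of the 15 alternatives, and none of the 15 gave a call.

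Hsp90ab1, the constitutive cytosolic HSP90, lies on chromosome 17 (45567775 to 45573271, minus strand) and was the most abundant of the 10 transcripts. It had 1328, 2096 and 1807 CPM in high glucose replicates 1 to 3 and 967, 662 and 1175 CPM in low glucose replicates 1 to 3. The groups did not overlap, and replicate 2 was the highest library at high glucose and the lowest at low glucose. Its log2 fold change of 0.90 ± 0.33, a fold of 1.87, did not pass (edgeR adjusted p = 0.0769). With the replicate block it was 0.91 and passed (edgeR adjusted p = 0.0440). DESeq2 gave an adjusted p of 0.00738, and without high glucose replicate 1 the log2 fold change was 1.06 (edgeR adjusted p = 0.0325).

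Hsp90aa1, the stress-inducible HSP90, lies on chromosome 12 (110690605 to 110702728, minus strand). It had 221, 321 and 254 CPM in high glucose replicates 1 to 3 and 179, 90.3 and 202 CPM in low glucose replicates 1 to 3. The groups did not overlap, although high glucose replicate 1 and low glucose replicate 3 were close. Its log2 fold change of 0.75 ± 0.32 did not pass (edgeR adjusted p = 0.117), with any library left out or with the block, but passed with library totals (1.85, edgeR adjusted p = 0.00430). There its excess over the median shift was 0.69.

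Per 1000 reads of Hsp90ab1, Hsp90aa1 had 166, 153 and 141 reads in high glucose replicates 1 to 3 and 185, 136 and 172 reads in low glucose replicates 1 to 3. The log2 ratio averaged -2.71 ± 0.12 at high and -2.62 ± 0.23 at low glucose (SD, n = 3 each). The difference of -0.09 was within the spread between libraries (exact two-sided permutation p = 0.6, smallest possible 0.1). The inducible and constitutive HSP90 transcripts were thus measured in overlapping proportions in both groups, which does not show that the proportions were equal.

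Hspb1 lies on chromosome 5 (135887919 to 135889563, plus strand). It had 17.8, 43.2 and 52.9 CPM in high glucose replicates 1 to 3 and 4.52, 5.98 and 13.8 CPM in low glucose replicates 1 to 3. The groups did not overlap, but high glucose replicate 1 and low glucose replicate 3 came near each other. It rose by 2.25 ± 0.53 on the log2 scale, a fold of 4.76 (edgeR adjusted p = 0.0195), and was higher in each of the 3 same-numbered pairs (log2 ratios 1.98, 2.85 and 1.93). The call was lost without high glucose replicate 3 (1.94, edgeR adjusted p = 0.0616), without low glucose replicate 1 (1.93, 0.0656) and without low glucose replicate 2 (2.09, 0.0831).

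**Figure D3:**
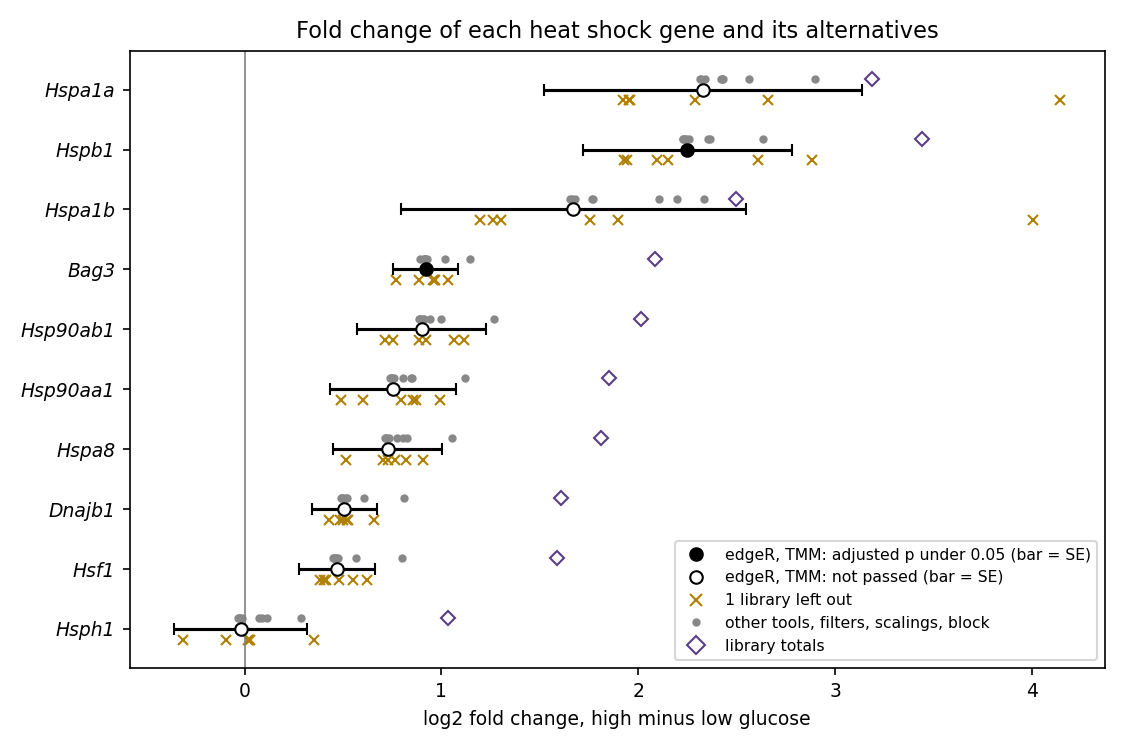
Log2 fold change (x axis, high minus low glucose) of the 10 heat shock genes, ordered by size, with circles and SE bars from edgeR with TMM, filled where the adjusted p was under 0.05. Crosses leave out 1 library each, dots are other tools, filters, scalings and the block, and diamonds are library totals, where the median gene lies at 1.16. Bag3 and Hspb1 are filled, and leaving out low glucose replicate 1 moves Hspa1a and Hspa1b to 4.14 and 4.0.

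Levels between genes were compared per 1000 bases of exon, as TMM-scaled CPM divided by exonic length. On this scale Hsp90ab1 led with 581 ± 129 at high and 312 ± 86.0 at low glucose, followed by Hspa8 with 151 ± 7.32 at high and 91.5 ± 27.5 at low glucose (SD, n = 3 each). Hsp90aa1 came next with 67.4 ± 12.9 at high and 40.0 ± 15.03 at low glucose. At high glucose Hspb1 (36.8 ± 17.6), Bag3 (25.9 ± 4.59) and Hsph1 (15.03 ± 1.31) followed, of which the neighbours Hspb1 and Bag3 overlapped. At low glucose the order was Hsph1 (15.2 ± 7.12), Bag3 (13.7 ± 0.88) and Hspb1 (7.87 ± 4.86), with Bag3 overlapping both of the others. Dnajb1 had 8.27 ± 0.24 at high and 5.79 ± 0.97 at low glucose, Hsf1 4.12 ± 0.80 at high and 2.97 ± 0.31 at low glucose. Hspa1a had 5.37 ± 3.10 at high and 0.97 ± 1.16 at low glucose, and Hspa1b 5.18 ± 2.55 at high and 1.498 ± 2.04 at low glucose. The means of the inducible HSP70 pair were the lowest of the 10 at low glucose, where the range of Hspa1b overlapped that of Hsf1. Counts of this pair are uncertain because their coding sequences were 99.5% identical, so their place in this order is uncertain too.

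Constitutive members made up most of the chaperone signal. Hsp90ab1 and Hspa8 together held 79.5% to 81.9% of the summed CPM of the 10 genes in the high glucose libraries and 76.7% to 80.1% in the low glucose libraries. The 10 genes took 0.427% to 0.463% of all counts at high and 0.0654% to 0.178% at low glucose, shares that also fall as acinar transcripts take more of a library. On the TMM scale the sum was 2446, 3386 and 3047 CPM in high glucose replicates 1 to 3 and 1895, 1152 and 2011 CPM in low glucose replicates 1 to 3.

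The 6 libraries did not rank the 10 genes alike. Within low glucose, replicate 1 was the highest library for Hspa1a, Hspa1b, Hspa8, Hsph1, Dnajb1 and Bag3, whereas replicate 2 was the lowest for Hspa1a, Hspa8, Hsph1, Hsp90aa1, Hsp90ab1 and Bag3. Within high glucose, replicate 1 was the lowest for 8 genes and the highest for Bag3 and Hsph1. Genes most like Hspa1b over the 6 libraries, among 8341 other genes with a mean of at least 10 CPM, were Por (Pearson r of log2 CPM 0.990), Cbll1 (0.987) and Sike1 (0.976). For Hspa8 they were Fam76a (0.992), Cybc1 (0.990) and Cdk7 (0.987). These correlations rest on 6 libraries that share a group difference and were picked as the highest of many.

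The wider chaperone network was described with 77 further genes, of which 69 were tested. Of these, 15 rose and 3 fell by edgeR, which is 21.7% and 4.3% against 13.3% and 14.2% of all genes tested, and their median log2 fold change was 0.21 against 0.015 for all genes. When hormone and granule genes set the library sizes, the calls of Hspa4l, Hspa12a, Hspa12b, Dnajc2 and Hspb8 held and those of the other 13 were lost. All-gene calls under that scaling were 1016 higher, against 1861 with TMM. The all-gene median log2 fold change was 0.277 there, against 0.015 with TMM. The log2 fold changes of the 12 lost genes that had risen were larger there (Ptges3 1.20 against 0.90, Cct3 1.17 against 0.88, Hspa4 1.00 against 0.69). That of Bag4 moved to -0.61, against -0.87 with TMM. These moves include the shift of the all-gene median. Among other HSP70 and HSP110 genes, 2 of 6 rose and 2 fell. Hspa4, an HSP110 exchange factor, averaged 216 ± 26.8 CPM at high and 134 ± 14.2 CPM at low glucose (SD, n = 3 each; log2 0.69 ± 0.18), and its relative Hspa4l averaged 72.7 ± 14.1 at high and 33.7 ± 13.9 at low glucose (1.10 ± 0.31). The distant HSP70 relatives Hspa12a (3.98 ± 1.57 CPM at high and 12.7 ± 4.57 at low glucose) and Hspa12b (0.623 ± 0.183 at high and 5.03 ± 2.02 at low glucose) fell. Hspa12b is known as an endothelial transcript, and 2 of the 6 endothelial markers also fell. Their summed CPM of 136 to 279.6 at high and 249 to 307 at low glucose overlapped, where the sum is over all 6. A link between these markers and Hspa12b was not tested. With library totals Hspa12a did not pass (-0.56). Hspa4 did not pass without high glucose replicate 2 (0.60) or 3 (0.71) or low glucose replicate 1 (0.67) or 2 (0.64), nor Hspa4l without high glucose replicate 2 (1.07) or 3 (1.26) or low glucose replicate 2 (0.85) or 3 (1.11). Hspa12a did not pass without high glucose replicate 3 (-1.62) or low glucose replicate 1 (-1.38) or 2 (-1.65).

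Among 11 other cytosolic J-domain genes, 2 rose by edgeR (18.2%, against 13.3% of all genes tested). By DESeq2 3 were higher, against 15.6% of all genes. At an unadjusted p under 0.05, 5 were higher, against 20.9% of all genes. None was lower by any of these, where 14.2% of all genes were lower by edgeR and 16.8% by DESeq2. Without high glucose replicate 1, 3 were higher and 1 lower by edgeR, against 19.8% and 20.5% of all genes. Dnajc2, a ribosome-associated J-domain gene, averaged 63.4 ± 16.3 CPM at high and 28.5 ± 4.67 at low glucose, and Dnajb5 averaged 9.26 ± 0.87 at high and 5.05 ± 1.19 at low glucose (SD, n = 3 each). Of 8 genes for exchange factors and cofactors of HSP70, 1 rose and 1 fell (12.5% each, close to the 13.3% and 14.2% of all genes tested). Hspbp1, a nucleotide exchange factor, rose by 0.91 ± 0.21 on the log2 scale. Bag4, a BAG family member, fell by 0.87 ± 0.15 to 13.9 ± 0.97 CPM at high, against 25.4 ± 1.49 CPM at low glucose, and its log2 fold change was 0.30 and not called with library totals. Dnajb5 passed in the full data and without high glucose replicate 1, and missed the threshold without any of the other libraries (0.69 to 1.02). Hspbp1 missed it without high glucose replicate 2 or 3 or low glucose replicate 2 (0.83 to 0.94).

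Of 14 HSP90 co-chaperone genes 2 rose by edgeR (14.3%), which is close to the 13.3% of all genes tested. By DESeq2 3 were higher, against 15.6% of all genes. At an unadjusted p under 0.05, 4 were higher, against 20.9% of all genes. None was lower by any of these, where 14.2% of all genes were lower by edgeR and 16.8% by DESeq2. With the replicate block Sugt1, an HSP90 co-chaperone gene, was higher as well (0.73, edgeR adjusted p = 0.0123). Their median log2 fold change was 0.18. Ptges3, which encodes the p23 co-chaperone that stabilises ATP-bound HSP90, averaged 46.0 ± 1.78 CPM at high and 24.7 ± 3.52 at low glucose (SD, n = 3 each; log2 0.90 ± 0.15, edgeR adjusted p = 0.00577). Unc45a, a myosin co-chaperone, rose by 0.52 ± 0.12, but it passed with 1 library left out only where that was high glucose replicate 1 (0.50 to 0.58 in the others). Stip1, which links HSP70 to HSP90, had a log2 fold change of 0.31 ± 0.22, and Ahsa1, which stimulates the HSP90 ATPase, of 0.15 ± 0.19, and neither passed. Among the other small heat shock protein genes, 4 of 8 were tested and 1 of the 4 rose (25%, against 13.3% of all genes tested). It was Hspb8, the partner of Bag3, with 43.1 ± 16.3 CPM at high and 18.1 ± 7.01 at low glucose (log2 1.26 ± 0.37, edgeR adjusted p = 0.0394). Its groups overlapped, since high glucose replicate 1 (25.5 CPM) lay below low glucose replicate 3 (26.1 CPM). Hspb8 did not pass without high glucose replicate 2 (1.22) or 3 (0.999) or low glucose replicate 1 (1.06) or 2 (1.16). Cryab, the alpha-B crystallin gene, did not pass (0.39 ± 0.24).

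The chaperonin TRiC folds actin and tubulin, which prefoldin delivers to it. Of 14 TRiC and prefoldin genes 5 rose (35.7%, against 13.3% of all genes tested) and none fell (against 14.2%) by edgeR, with a median log2 fold change of 0.54. DESeq2 and the replicate block each gave 7 higher and 1 lower. Of all genes, 15.6% by DESeq2 and 15.7% by the block were higher, and 16.8% and 17.7% were lower. The block added Cct2 (0.69, edgeR adjusted p = 0.0220) and Cct4 (0.70, edgeR adjusted p = 0.0272). In that fit the lower gene was the prefoldin subunit gene Pfdn5 (-0.50, edgeR adjusted p = 0.0384). When hormone and granule genes set the library sizes none of the 14 was called, where 7.26% of all genes were higher. At an unadjusted p under 0.05, 7 of the 14 were higher under that scaling. Cct3 averaged 102 ± 3.45 CPM at high and 55.5 ± 6.34 at low glucose (SD, n = 3 each), and Cct8 176 ± 17.0 at high and 93.2 ± 15.5 at low glucose. The prefoldin subunit gene Pfdn2 rose by 0.69 ± 0.15. Of the 14, 2 were higher without high glucose replicate 2 or 3 and 1 without low glucose replicate 2, where Cct8 (0.82) and Pfdn2 (0.69) did not pass. Of all genes, 7.66%, 5.78% and 4.86% were higher in these fits, in the same order.

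None of the 3 tested genes for other heat shock factors and HSF1 regulators (Hsf2, Hsf4 and Hsbp1) passed edgeR, an unadjusted p under 0.05, DESeq2 or limma-voom. With library totals 2 of the 3 were higher, against 59.7% of all genes. Of 7 paralogs in the endoplasmic reticulum and mitochondria, 1 rose by edgeR (14.3%, close to the 13.3% of all genes tested). It was Hspa9, the mitochondrial HSP70, with 468 ± 111 CPM at high and 215 ± 41.9 at low glucose (SD, n = 3 each; edgeR adjusted p = 0.0179). The call was lost without high glucose replicate 2 (log2 fold change 0.98) or 3 (1.10), low glucose replicate 1 (1.03) or 2 (1.06). It was also lost when hormone and granule genes set the library sizes (1.47). With the replicate block Trap1, the mitochondrial HSP90, was lower as well (-0.49, edgeR adjusted p = 0.0355). The HSP70 and HSP90 of the endoplasmic reticulum, Hspa5 (log2 0.04 ± 0.35) and Hsp90b1 (-0.29 ± 0.35), did not pass.

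Of 14 further genes known to be raised by heat through HSF1, 3 rose by edgeR (21.4%, against 13.3% of all genes tested). By DESeq2 4 were higher, against 15.6% of all genes, and at an unadjusted p under 0.05 it was 5, against 20.9%. None was lower by any of these, where 14.2% of all genes were lower by edgeR and 16.8% by DESeq2. The median log2 fold change of the 14 was 0.35. Without high glucose replicate 1, 5 were higher and 1 lower by edgeR, against 19.8% and 20.5% of all genes. The 3 were Hspb8, Hspa4l and Serpinh1, a collagen chaperone gene (81.3 ± 20.3 CPM at high and 40.0 ± 12.1 at low glucose; log2 1.02 ± 0.28). Dnaja1 (0.18 ± 0.22), Hspe1 (0.01 ± 0.23) and Chordc1 (0.11 ± 0.21), all heat-induced, did not pass. None of the 14 passed edgeR without high glucose replicate 2, high glucose replicate 3 or low glucose replicate 2. Of all genes, 7.66%, 5.78% and 4.86% were higher in these fits, in the same order. In each of them 3 of the 14 had an unadjusted p under 0.05. Without low glucose replicate 1, 1 of the 14 passed, against 7.71% of all genes. With library totals 13 were higher, where 8349 of all genes were.

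**Figure D4:**
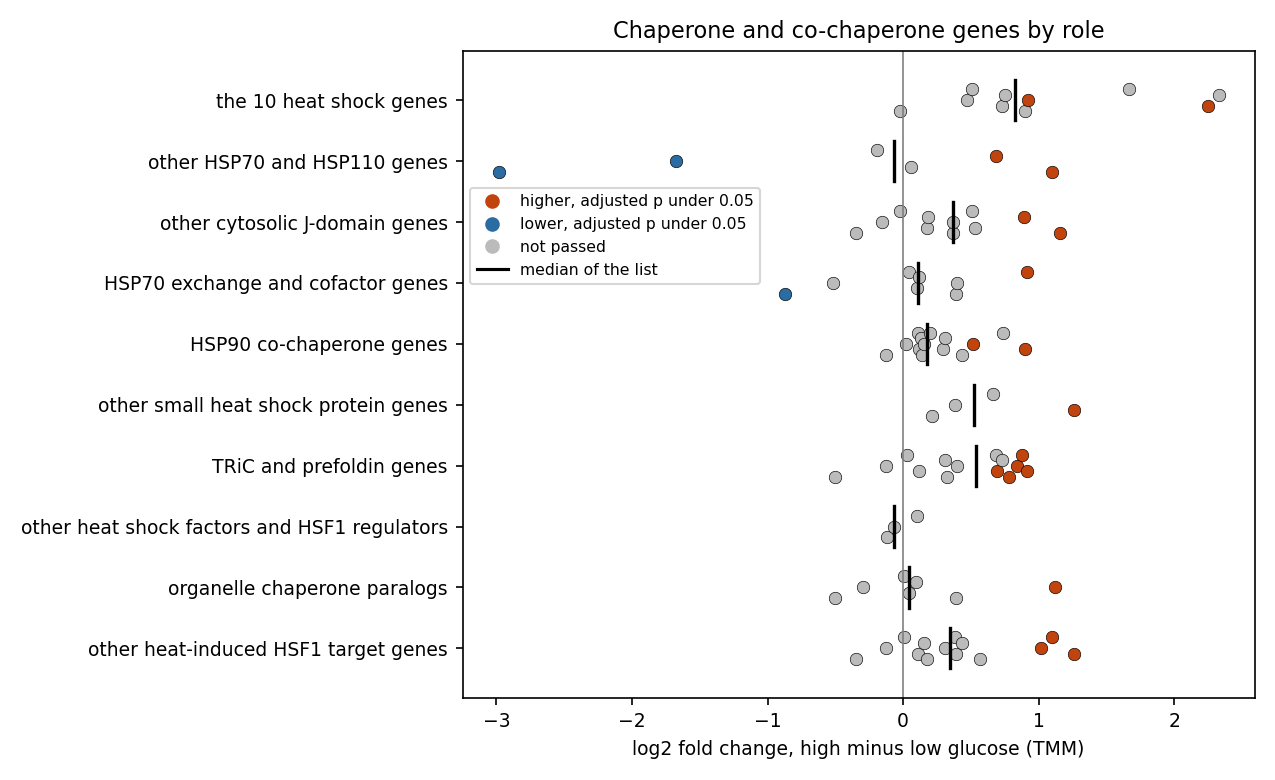
Log2 fold change (x axis, high minus low glucose, TMM scaling) of each tested gene, in rows by role, with the 10 heat shock genes at the top. Red marks genes higher and blue genes lower at an edgeR adjusted p under 0.05, grey those that did not pass, and black bars are list medians. The medians lie between -0.07 and 0.83, and the TRiC and prefoldin row holds 5 red genes.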

How the data were processed

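Polyadenylated RNA of 6 islet libraries was measured. The authors deposited raw read counts per gene, 1 column per library, and STAR 2.7.3a, HTSeq 0.6.1p1 and the GRCm38 build are named in the submitters' processing notes. The annotation, strand setting and handling of reads that map to several genes are not given in the sources used here. Columns were assigned by name, and gene symbols, coordinates and exonic lengths came from GENCODE M21. The 10 genes, the gene lists and the tests were chosen with earlier results of these data known.

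The comparison of high with low glucose used edgeR 4.0.16 (R 4.3.3; glmQLFit and glmQLFTest) with TMM scaling and filterByExpr defaults (minimum count 10, minimum total 15), which kept 13996 genes. P-values were adjusted over all of them, and each SE was obtained by dividing the fold change (log2) by the root of the F statistic. Ratios used exact permutation tests. The named genes were the 10, and up to 3 genes past the threshold with the smallest p in each list; others are named as examples after their values were seen. Upstream sequences came from RefSeq. Totals of 10596020 to 15846235 counts limit precision most for Hspa1a and Hspa1b.

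The labels do not say whether the libraries of a group stem from different mice or cultures, so the p-values refer to the spread of these libraries alone and that spread may be technical. No pair of libraries in a group agreed within sampling noise (chi-square per degree of freedom at least 17.4). Deviations from the group means correlated at 0.40, 0.26 and 0.25 between same-numbered libraries, against -0.31 to 0.07 for other pairs. No label states a pairing, so the main fit and the main ratio tests left the libraries unpaired. A pairing by replicate number was used only in the alternative with the block. The alternatives were 4 scalings, 2 filters, DESeq2 1.42.0, limma-voom (limma 3.58.1), a fit with the replicate number as block, and leaving out each library. On simulated counts for 13996 genes of this comparison, 98 of 100 genes changed 4-fold and 35 of 100 changed 2-fold were recovered, and 4 of 137 calls were unchanged genes. Every simulated gene had the same median dispersion (spread beyond sampling noise), and only the changed genes differed in mean. These rates therefore do not carry over to genes with a wide spread, such as Hspa1a and Hspa1b, or to the differing makeup of these libraries.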

Additional observations from a re-analysis of the deposited data

How the results depend on the processing

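Of the 10 genes, 2 were higher by edgeR, against 9 with library totals and 6 with DESeq2. With no filter 4 were higher, with the replicate block 4, and with 1 library left out 1 to 6. Of all genes tested, 59.7% were higher with library totals, 15.6% with DESeq2, 9.8% with no filter and 15.7% with the replicate block. With 1 library left out, 4.86% to 19.8% of all genes were higher. The acinar-marker, DESeq2 size factor, hormone and granule gene, CPM filter and limma-voom alternatives gave 2 of the 10 each. In that order, 13.3%, 13.1%, 7.26%, 13.3% and 10.7% of all genes tested were higher. With hormone and granule gene scaling the 2 of the 10 were Hspb1 and Hspa1a (2.90), and Bag3 was lost (1.15), while the median of all genes was 0.277. None of the 10 was called lower under any of the 15 alternatives. Hsph1 had a log2 fold change of -0.02, which turned to 1.03 with library totals, 0.29 with hormone and granule gene scaling, 0.075 with no filter, 0.0905 with the replicate block and 0.11 with limma-voom, and ranged from -0.31 to 0.35 with 1 library left out (0.03 without high glucose replicate 2 or 3, 0.35 without low glucose replicate 1, 0.02 without low glucose replicate 3); it passed in none of them. The other 9 genes kept a positive sign under all 15. Bag4 turned to 0.30 with library totals. Over all genes, 1861 higher and 1987 lower calls became 1016 and 1056 when hormone and granule genes set the sizes, 8349 and 629 with library totals, and 708 to 2793 and 1035 to 2892 with 1 library left out; the cause was not tested. The replicate block gave 2197 and 2473, and among the 10 genes it changed the calls of Hspa8 and Hsp90ab1 and no others; in the TRiC, HSP90 co-chaperone and organelle lists it added Cct2, Cct4 and Sugt1 as higher and Pfdn5 and Trap1 as lower. For the ratios, the block left the differences at 2.08 (exact sign-flip permutation p = 0.5) and -0.09 (p = 0.75), with 0.25 the smallest p it allows. Leaving out 1 library gave 1.27 to 3.01 for the HSP70 and -0.22 to -0.00 for the HSP90 ratio. With Hspa1a or Hspa1b alone the HSP70 difference was 2.20 or 2.05. Depth limits Hspa1a and Hspa1b, with 3 to 8 reads in low glucose replicates 2 and 3.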
